A study of Mus musculus with 55 samples.

Results

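Immediate early genes are the genes that cells switch on first, without new protein synthesis, when growth factors, serum or stress reach them. A list of 10 such genes (Fos, Jun, Junb, Jund, Egr1, Ier2, Ier3, Ier5, Atf3 and Btg2) was looked up by symbol in the pre-mRNA tables of mouse ES cells released from a mitotic arrest, and 5 of the 10 were listed. Fos, Egr1, Ier3 and Btg2 were among the 9911 genes of CCNA-GFP cells and, together with Atf3, among the 10237 genes of CTCF-AID cells. Jun, Junb, Jund, Ier2 and Ier5 were listed in neither table and have no values here. The question put to the data was whether their pre-mRNA after release behaved as it would after a stimulus, with a rise that comes early and is followed by a fall. No library of stimulated cells is part of the series, so the comparison with a stimulus rests on timing and size alone.

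All cells are E14Tg2a mouse ES cells of 129/Ola origin, kept in serum and LIF. CCNA-GFP cells carry a cyclin A-GFP reporter of the cell cycle, and CTCF-AID cells carry Ctcf fused to an auxin-inducible degron, so that IAA (auxin) leads to loss of the CTCF protein. Mitotic cells were obtained with the CDK1 inhibitor RO-3306 at 10 µM for 4 h, then nocodazole at 50 ng/ml for 4 h and shake-off, and were released into medium without nocodazole. In the +IAA arm, IAA at 0.5 mM was present for the last 2 h of nocodazole and throughout release, and asynchronous cells of that arm received it for 4 h. Both lines derive from E14Tg2a, and the CTCF-AID line is a single clone. CCNA-GFP gave 19 libraries: 3 asynchronous, 3 mitotic, 2 at each of 20, 30, 40, 60, 90 and 120 min, and 1 at 50 min, which has no replicate. CTCF-AID gave 18 libraries without IAA and 18 with it: 3 asynchronous and 3 mitotic, and 2 at each of 20, 40, 50, 60, 90 and 120 min. Every mitotic and released library came from cells that had received RO-3306 and nocodazole, and the asynchronous libraries did not, so that stage and drug cannot be told apart when released cells are set against asynchronous ones. Release also meant handling: a wash and shake-off in PBS, filtering, spinning down, and pre-warmed medium in new dishes. Leaving mitosis, this handling and the new medium cannot be told apart in any of these libraries. The labels number the replicates and the study's methods call them independent. For changes between stages, the p-values rest on the spread left after the shared level of each replicate is taken out. For IAA they rest on the spread between replicates. Either spread is pooled over all stages of a cell line.

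The values are given as TPM, by definition a length-normalized share of the transcripts of a library. Those deposited also carry a factor particular to each library, which no source used here explains, so they are not plain shares. They are for the pre-mRNA isoform, the unspliced transcript, whose level follows ongoing transcription more closely than that of mature mRNA. Read counts and depth are unknown, and the listed TPM of a library summed to 13747–42576 in CCNA-GFP and 17702–43370 in CTCF-AID, lowest in mitotic or 20 min libraries and highest at 60 min in CCNA-GFP and 50 min in CTCF-AID. Values were whole multiples of a step of 0.0184–0.0381 TPM, so the mitotic values of Atf3 stand on 3–7 steps and those of Ier3 on 4–37, against 136–366 for Btg2. Of 10 ES cell markers 9 were listed, with Sox2 the exception, and they summed to 32.2–158 TPM in a library. Of 5 endoderm markers none was listed, and of 7 fibroblast markers none was listed in CCNA-GFP, while 2 were in CTCF-AID (0.146–3.42 TPM in sum). Of 4 neural markers 3 were listed in each table (2.06–16.9 TPM in sum), of 4 mesoderm markers 2 (0.0676–5.55 TPM), and of 4 primed epiblast markers 1 in CCNA-GFP and 2 in CTCF-AID (2.65–8.30 TPM). The IAA treatment acts on the CTCF protein, which was not measured here, and Ctcf pre-mRNA in mitotic cells averaged 6.22 TPM without and 6.57 TPM with IAA (n = 3 each).

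The genes differ in how much of them a pre-mRNA measurement can see. In Gencode vM21 (GRCm38) Jun, Jund, Ier2 and Ier5 have a single exon and hence no intron, while Junb has a 2-exon transcript. None of the 1328 single-exon genes among 21923 protein-coding genes was found among the 9549 protein-coding genes matched in the CCNA-GFP table or the 9867 matched in the CTCF-AID table. Among listed members, introns made up 96.0% of the longest transcript of Atf3 (45838 bp), 37.7% for Fos (1276 bp), 30.6% for Btg2 (1208 bp), 13.1% for Egr1 (678 bp) and 8.79% for Ier3 (109 bp). The values of Egr1 and Ier3 therefore rest on a short stretch that is particular to pre-mRNA, and how far reads of mature mRNA enter them was not tested. The deposited tables keep genes of the RefSeq curated set. Their mean must also exceed 0.5 TPM either in asynchronous cells or, failing that, in 2 or more of the stages after mitosis. Ier3 and Atf3 in CTCF-AID had asynchronous and mitotic means below 0.5 TPM (at most 0.440 and 0.224 TPM) and could enter that table only through the released cells.

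In a stimulated cell, kinases of the MAPK cascade phosphorylate transcription factors that already sit on the promoters of these genes, such as SRF with its ELK partners at CArG boxes and CREB at cAMP response elements. Transcription starts within minutes and stops again soon after, since several products feed back on the cascade or on the genes themselves. Fos encodes a subunit of AP-1, which pairs with Jun proteins, Egr1 a zinc-finger transcription factor and Atf3 a stress-induced factor of the CREB/ATF family. Ier3 encodes a small protein that acts on cell survival and on ERK signalling, and Btg2 an antiproliferative protein that recruits the CCR4-NOT deadenylase and is also a target of p53.

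The 250 bases before the start are shown for members that rose together at 40 min. The stretches upstream of the RefSeq start (GRCm38.p6) were taken for the 4 listed members found in the promoter table. Egr1 was not matched. Capitals mark matches, on either strand, to the full cAMP response element TGACGTCA, its core TGACG, the TATA box TATAAA and the CCAAT box CCAAT. Fos (ENSMUSG00000021250.13) lies at chr12:85473890-85477273 and Ier3 (ENSMUSG00000003541.6) at chr17:35821684-35822923, both on the plus strand, and Btg2 (ENSMUSG00000020423.6) at chr1:134075170-134079120 and Atf3 (ENSMUSG00000026628.13) on the minus strand. The Atf3 start lies inside the gene span of Gencode (chr1:191170296-191218039), not at its outer end. The Ier3 start also lies inside its Gencode span, so the last bases of its window overlap that gene model.
Fos, chr12:85473640-85473889, plus strand: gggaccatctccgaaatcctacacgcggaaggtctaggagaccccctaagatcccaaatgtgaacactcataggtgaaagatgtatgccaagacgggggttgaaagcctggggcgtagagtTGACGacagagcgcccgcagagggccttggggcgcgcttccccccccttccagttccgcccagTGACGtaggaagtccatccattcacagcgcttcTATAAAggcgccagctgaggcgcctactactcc
Ier3, chr17:35821463-35821712, plus strand: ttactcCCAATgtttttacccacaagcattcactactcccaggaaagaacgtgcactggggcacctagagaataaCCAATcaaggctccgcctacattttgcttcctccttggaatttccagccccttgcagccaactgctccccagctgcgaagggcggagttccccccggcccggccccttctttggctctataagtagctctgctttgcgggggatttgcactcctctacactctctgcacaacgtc
Btg2, chr1:134079156-134079405, minus strand: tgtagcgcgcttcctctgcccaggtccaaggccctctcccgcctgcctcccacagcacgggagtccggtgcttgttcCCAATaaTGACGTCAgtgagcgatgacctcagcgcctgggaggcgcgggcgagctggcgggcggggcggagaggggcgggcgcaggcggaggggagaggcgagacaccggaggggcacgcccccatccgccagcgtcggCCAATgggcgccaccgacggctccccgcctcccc
Atf3, chr1:191183334-191183583, minus strand: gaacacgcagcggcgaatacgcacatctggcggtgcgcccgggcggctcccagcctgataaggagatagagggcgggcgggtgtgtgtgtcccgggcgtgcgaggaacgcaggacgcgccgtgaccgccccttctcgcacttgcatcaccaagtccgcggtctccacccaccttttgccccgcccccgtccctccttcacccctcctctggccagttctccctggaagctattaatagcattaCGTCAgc

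Btg2 held the full element TGACGTCA at -166 to -159, a match found in 1.55% of 32851 promoters of the same length, and this match contains the core TGACG on each strand. Fos held the core TGACG at -129 and at -66 and TATAAA at -33, Atf3 the core on the other strand (CGTCA) at -7, against a core in 17.8% and TATAAA in 12.4% of all promoters. CCAAT occurred at 2 positions each in Ier3 (-244 and -175) and Btg2 (-173 and -34), and in 33.8% of all promoters. The CArG box (1.47% of promoters), the AP-1 site TGANTCA (6.75%) and the EGR site GCGTGGGCG (0.536%) had no match in these 4 windows, which says only that those letters are not within the 250 bases shown.

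Btg2 had by far the most pre-mRNA of the listed members after release, and its level was already above that of cycling cells in mitosis. In CCNA-GFP the 3 mitotic libraries had 8.68, 4.52 and 7.31 TPM, those at 40 min 26.8 and 16.6 TPM, the library at 50 min 25.5 TPM, those at 60 min 17.6 and 16.6 TPM and those at 120 min 11.7 and 13.5 TPM. In CTCF-AID without IAA it went from 7.52, 6.52 and 9.47 TPM in mitosis to 31.0 and 33.2 TPM at 40 min, and was at 14.1 and 24.1 TPM at 60 min and 12.2 and 17.1 TPM at 120 min. Both libraries at 40 min lay above every mitotic library and above both libraries at 60 min in CTCF-AID. In CCNA-GFP the second replicate had 16.6 TPM at 40 min and again at 60 min, which were 719 and 470 steps of different size. The asynchronous libraries, at 1.80, 3.00 and 2.24 TPM in CCNA-GFP and 2.79, 3.45 and 1.51 TPM in CTCF-AID without IAA, lay below every mitotic library.

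Egr1 showed the opposite relation to cycling cells. Its pre-mRNA in CTCF-AID without IAA was at 9.74, 12.2 and 10.3 TPM in asynchronous libraries and at 1.78, 1.32 and 2.07 TPM in mitotic ones. It rose to 3.49 and 5.74 TPM at 40 min and was at 1.30 and 4.97 TPM at 60 min and at 0.833 and 1.90 TPM at 90 min. No released library of this line, with or without IAA, reached the lowest asynchronous value. In CCNA-GFP, Egr1 went from 0.871, 0.531 and 0.506 TPM in mitosis to 4.00 and 2.92 TPM at 40 min and 3.08 and 4.81 TPM at 60 min, then to 1.36 and 2.00 TPM at 120 min. Here the asynchronous libraries (4.99, 4.86 and 2.44 TPM) overlapped those at 40 and 60 min.

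Fos was low in mitosis and rose in every replicate. It was at 0.488, 0.365 and 0.197 TPM in the mitotic CCNA-GFP libraries, at 2.03 and 2.11 TPM at 40 min, and at 2.02 and 2.72 TPM at 60 min. In CTCF-AID without IAA the mitotic libraries had 0.413, 0.683 and 0.311 TPM, those at 40 min 2.97 and 4.39 TPM, those at 60 min 1.33 and 3.73 TPM and those at 120 min 1.00 and 1.51 TPM. The asynchronous libraries were spread widely, at 0.377, 2.65 and 0.203 TPM in CCNA-GFP and 0.799, 4.08 and 0.226 TPM in CTCF-AID without IAA, with the second replicate highest in each. The Fos values of released and asynchronous cells overlapped in each arm.

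Ier3 and Atf3 were close to the bottom of the scale in mitosis. Ier3 in CTCF-AID without IAA was at 0.109, 0.195 and 0.104 TPM in mitosis and at 2.68 and 2.72 TPM at 40 min, and the 60 min libraries lay apart at 0.472 and 2.19 TPM. In CCNA-GFP the mitotic libraries had 0.697, 0.332 and 0.112 TPM, those at 40 min 1.32 and 2.08 TPM and those at 60 min 0.837 and 2.23 TPM. Atf3, listed for CTCF-AID alone, had 0.0870, 0.122 and 0.129 TPM in the mitotic libraries without IAA, those at 40 min had 0.611 and 1.13 TPM, those at 60 min 0.697 and 1.36 TPM and those at 120 min 0.479 and 0.587 TPM. At 40 min the groups of released and mitotic libraries did not overlap for either gene in CTCF-AID. The filter favoured this, since both genes were listed there only through their released cells. The share of all genes without such overlap is not given here. At 60 min in CTCF-AID, with or without IAA, the second replicate had more pre-mRNA than the first for each of the 5 genes.

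**Figure D1:**
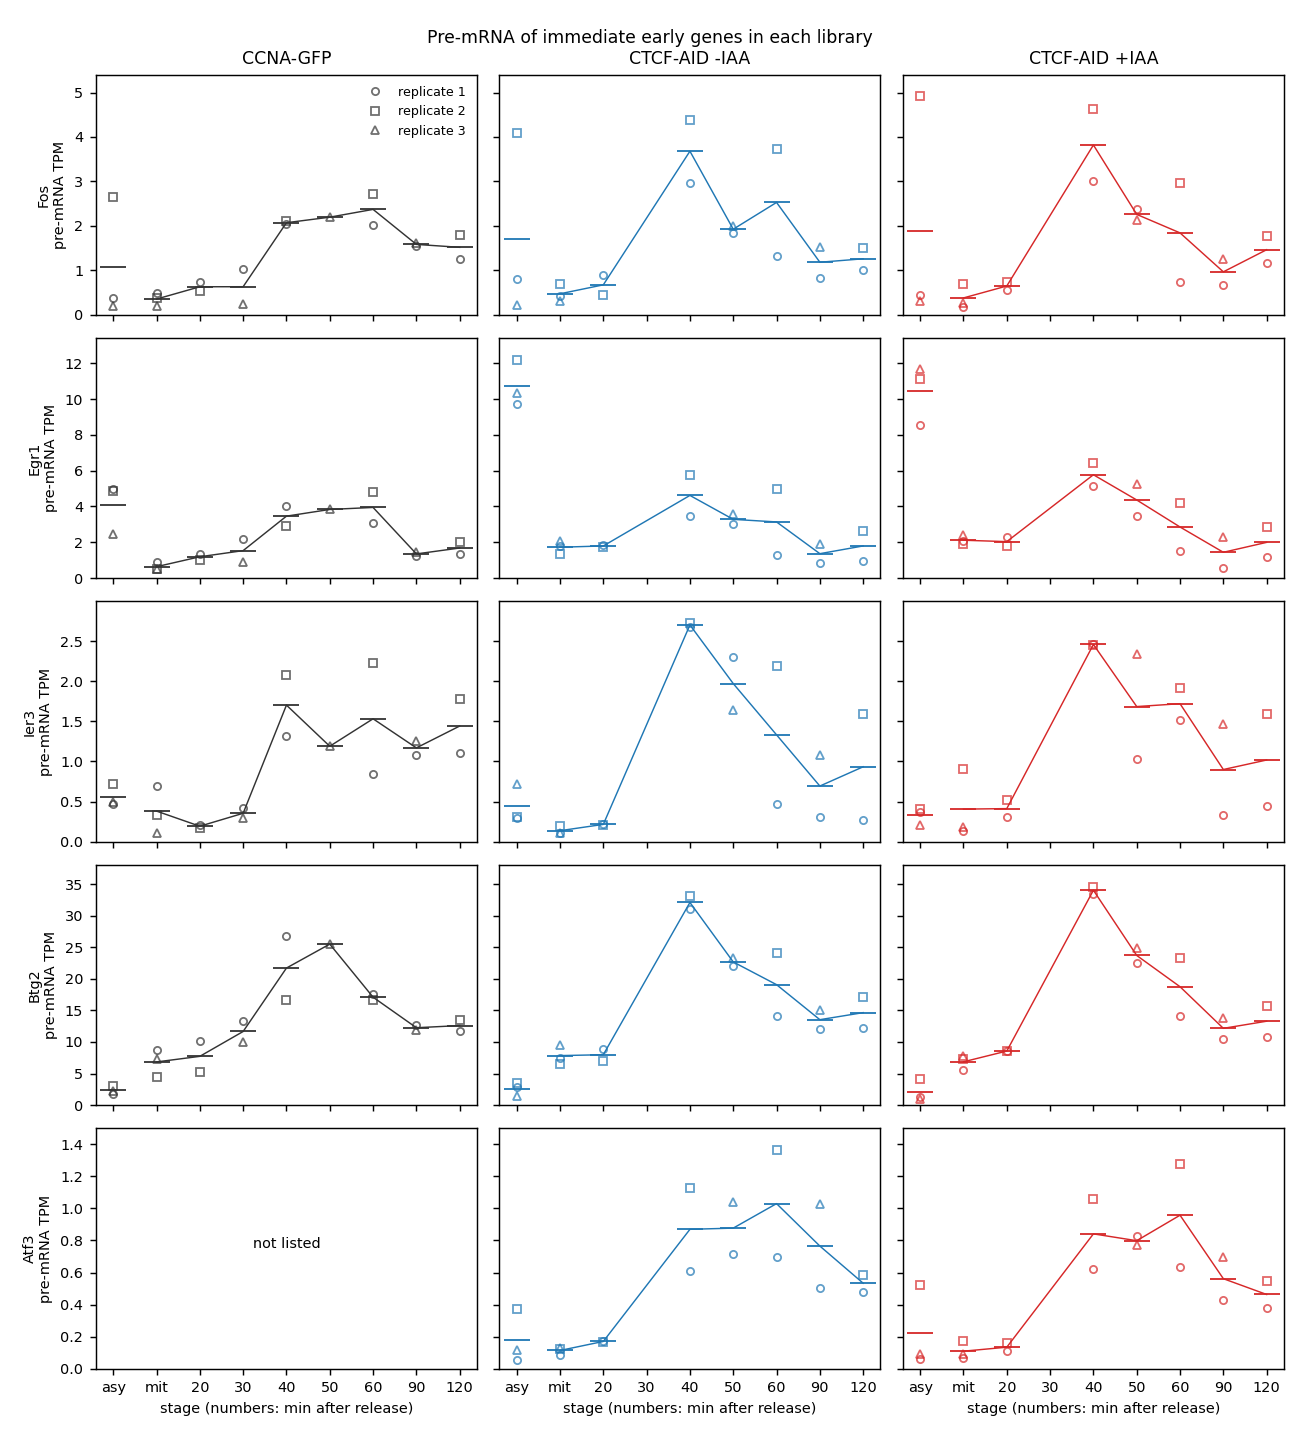
Pre-mRNA level (TPM, linear axis from 0) of the 5 listed immediate early genes in asynchronous cells (asy), mitotic cells (mit) and at 20 to 120 min after release, with a column for each arm; open symbols are single libraries by replicate, bars are stage means and the line joins the means from mitosis on. Fos, Egr1, Ier3 and Btg2 are highest at 40 min after release in both CTCF-AID arms, Egr1 is higher in asynchronous cells (means of 10.8 and 10.5 TPM) than at any time after release there, and Btg2 is lowest in asynchronous cells.

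The change from mitosis was tested with limma on log2(TPM + 1), over all genes, with the replicate as a block. Within an arm all changes from mitosis share the same 3 mitotic libraries. A fold change on this scale understates the change of genes with little pre-mRNA. At 20 min none of the listed members was called higher or lower in any arm, and neither was any other gene (0% of all genes, with 253, 397 and 149 genes at an unadjusted p below 0.05 in CCNA-GFP, CTCF-AID without and with IAA), and no member had an unadjusted p below 0.05. At 30 min, sampled in CCNA-GFP alone, no member was called while 0.303% of all genes were called higher. Egr1 and Btg2 had log2 fold changes of 0.66 ± 0.19 and 0.65 ± 0.22 (SE, n = 2 against 3, adjusted p = 0.15 and 0.22), each higher in both replicates, beside an all-gene median of 0.08. Without the second replicate, which was not sampled at 30 min, 1 member, Egr1, was called.

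At 40 min each listed member was called higher than in mitosis. In CCNA-GFP 4 of 4 were called higher, where 49.3% of all genes were. The log2 fold changes were 1.54 ± 0.22 for Btg2 (SE, adjusted p = 1.5e-05), 1.31 ± 0.19 for Egr1 (1.8e-05), 1.01 ± 0.24 for Fos (0.0015) and 0.91 ± 0.16 for Ier3 (0.00011), beside an all-gene median of 0.26. They stood at or above the 93.9th percentile of all genes. In CTCF-AID 5 of 5 were called higher without IAA, where 63.3% of all genes were, and 5 of 5 with IAA, where 58.7% were. The calls of Ier3 and Atf3 there were favoured by the filter, which these genes passed only through their released cells, and Fos, Egr1 and Btg2 are the 3 members that it did not favour. Without IAA the log2 fold changes were 1.88 for Btg2, 1.74 for Ier3, 1.51 for Fos, 1.11 for Egr1 and 0.73 for Atf3, beside a median of 0.34, and with IAA they were 2.13, 1.38, 1.65, 1.20 and 0.72 in the same order, beside 0.30. Each was higher in 2 of 2 replicates. When every library was scaled to the same total, which moved the all-gene medians to -0.05, -0.02 and -0.03, the 4, 5 and 5 calls at 40 min remained, with log2 fold changes from 0.62 to 1.60. The share of all genes called on that scale is not given, so these counts have no background to be read against.

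**Figure D2:**
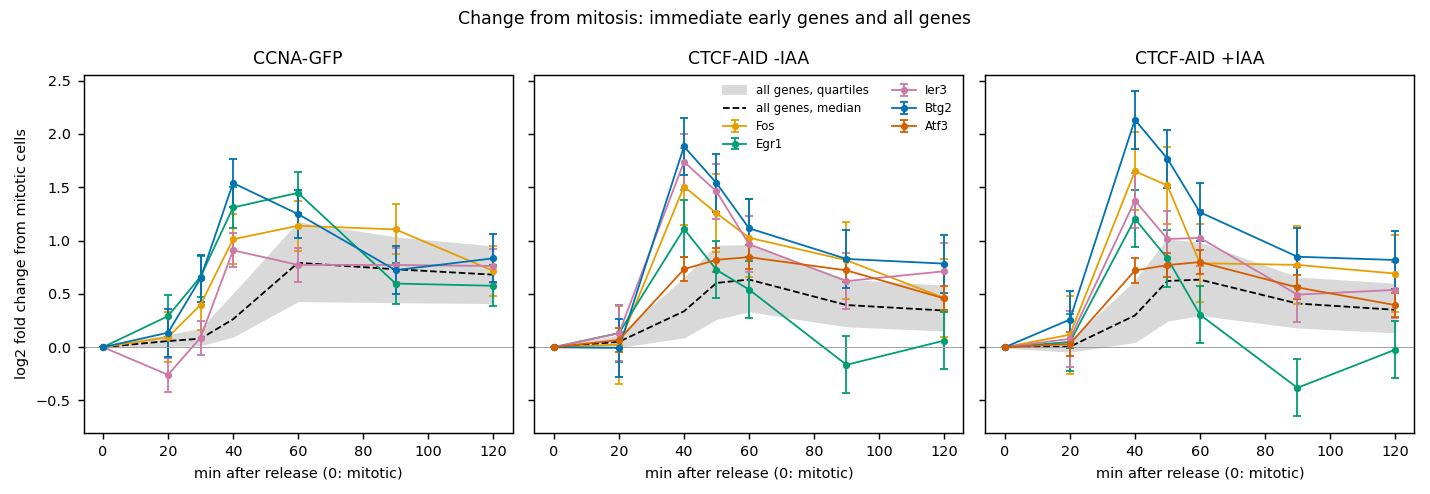
Log2 fold change from mitotic cells (limma, log2(TPM + 1)) against minutes after release for the listed immediate early genes in the 3 arms; error bars are standard errors, the dashed line is the median of all genes and the grey band runs from their lower to their upper quartile. At 40 min every listed member lies above the band, Atf3 closest to it (0.73 and 0.72), and at 120 min those of CCNA-GFP lie within it.

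The distance to the rest of the genes was largest at 40 min and smaller afterwards, while the median of all genes went on rising to 60 min. The median over the listed members of CCNA-GFP was 1.16 at 40 min against 0.26 for all genes, 1.19 at 60 min against 0.79, and 0.75 at 90 min against 0.73. Without IAA in CTCF-AID, with Ier3 and Atf3 included, it was 1.51 against 0.34 at 40 min, 1.26 against 0.60 at 50 min, 0.97 against 0.63 at 60 min and 0.46 against 0.34 at 120 min. The distance at 60 min depended on the replicate. In CCNA-GFP it was 1.01 against 0.93 without the second and 1.37 against 0.67 without the first. In CTCF-AID without IAA it was 0.68 against 0.61 and 1.22 against 0.66. In CCNA-GFP 4 of 4 members were called higher at 60 min, where 88.3% of all genes were, so that this count is near the background. At 50 min in CTCF-AID 5 of 5 members were called higher in either arm, against 79.1% of all genes without and 78.2% with IAA, among them Fos, Egr1 and Btg2, the 3 that the filter did not favour. At 60 min it was 4 of 5, against 84.8% and 82.2%, with Egr1 the exception (log2 fold changes of 0.54 ± 0.27, adjusted p = 0.062, and 0.31 ± 0.27, adjusted p = 0.29), so that 2 of the 3 members not favoured by the filter, Fos and Btg2, were called. Fos with IAA was close to the threshold (adjusted p = 0.048), and over 8 alternatives the count at 60 min ran from 2 to 5 without IAA and from 2 to 4 with it. It was 3 in either arm without the first or without the second replicate. Without the third replicate 3 of 5 were called at 50 min with IAA. With equal totals 1 of 4 members was called at 60 min in CCNA-GFP and 2 of 5 in either CTCF-AID arm. At 50 min without IAA 3 of 5 were, as also without the replicate block. With equal totals member medians at 60 min were 0.37, 0.52 and 0.36 (CCNA-GFP, CTCF-AID without and with IAA). All genes had 0.02, 0.06 and 0.06. Shares of all genes called, here and below, belong to the values as deposited. None is given with equal totals.

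At 90 and 120 min the members stood closer to all genes than at 40 min. At 90 min 4 of 4 members were called higher than in mitosis in CCNA-GFP (89.1% of all genes), 4 of 5 in CTCF-AID without IAA (74.8%) and 2 of 5 with IAA (73.8%). At 120 min the counts were 4 of 4 (90.2%), 3 of 5 (69.6%) and 2 of 5 (68.2%). These CTCF-AID counts include Ier3 and Atf3, which the filter favoured. Of Fos, Egr1 and Btg2 there, Fos and Btg2 were called at 90 min without IAA, and Btg2 alone at 90 min with IAA and at 120 min in both arms. Without IAA 2 of 5 were called at 90 min when the first or the third replicate was left out, and with IAA 4 were called at 90 min without the second replicate and 0 at 120 min without the first. Egr1 was not called in CTCF-AID on the values as deposited. At 90 min it was below mitosis in 2 of 2 replicates of each arm, with log2 fold changes of -0.17 ± 0.27 without IAA (adjusted p = 0.57) and -0.38 ± 0.27 with it (0.19), and at 120 min it was at 0.06 ± 0.27 and -0.02 ± 0.27. Btg2 stayed above it, at 0.83 ± 0.22 in CCNA-GFP (adjusted p = 0.0017), 0.78 ± 0.27 (0.013) and 0.82 ± 0.27 (0.0098). With equal totals no member was called at 90 or 120 min in CCNA-GFP, and the log2 fold change of Btg2 at 120 min there turned to -0.21. In CTCF-AID equal totals left 1 of 5 called higher at 90 min in either arm and 1 called lower. With IAA they left 1 called higher at 120 min.

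The times of the highest mean separated most members from other genes in CTCF-AID. Fos, Egr1, Ier3 and Btg2 had their highest mean after mitosis at 40 min in both arms, a time at which 2.49% of all genes without IAA and 1.57% with IAA had theirs. Ier3 entered that table only through its released cells, so Fos, Egr1 and Btg2 are the 3 to read against these shares. Atf3 had its highest mean at 60 min in both arms. In CCNA-GFP only Ier3 had its highest mean at 40 min (0.182% of all genes), Btg2 at 50 min (24% of all genes), a single library, and Fos and Egr1 at 60 min (23.8% of all genes). Most genes came later: the highest mean fell at 50 min for 49.7% of all genes without and 53.2% with IAA, and at 90 min for 40.2% in CCNA-GFP. The third replicate was not sampled at 40 min, and the first replicate, sampled at all times but 50 min in CCNA-GFP, had its highest value at 40 min for Fos, Egr1, Ier3 and Btg2 in all 3 arms. In the second replicate of CCNA-GFP, Fos, Egr1 and Ier3 were highest at 60 min. The step of that replicate was 0.0231 TPM at 40 min and 0.0354 TPM at 60 min, a difference that no source used here explains. Counted in steps, Fos went from 91 to 77 and Ier3 from 90 to 63 there, while Egr1 went from 126 to 136. For Fos and Ier3 the order of these 2 times thus depends on the step. With equal totals each listed member had its highest mean at 40 min in each arm, as 5.74%, 12.9% and 11.2% of all genes did in CCNA-GFP, CTCF-AID without and with IAA. In CTCF-AID this again includes Ier3 and Atf3, both listed there only through their released cells.

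A fall from 40 to 60 min was seen in CTCF-AID while most genes still rose. This comparison was added after the values had been seen. Without IAA Btg2 fell from 31.0 to 14.1 TPM in the first replicate and from 33.2 to 24.1 TPM in the second, and its log2 fold change was -0.77 ± 0.29 (SE, adjusted p = 0.031). Ier3 fell as well, by 0.77 ± 0.28 on the log2 scale (0.024). Egr1 and Fos were lower in both replicates but not called, at -0.57 ± 0.29 (adjusted p = 0.098) and -0.48 ± 0.39 (0.31). The 2 of 5 members called lower stand beside 2.49% of all genes called lower and 52.2% called higher, with an all-gene median of 0.25. Of Fos, Egr1 and Btg2, which did not need their released cells to be listed, Btg2 alone was called. With IAA, Btg2 (-0.87 ± 0.29, adjusted p = 0.014) and Egr1 (-0.90 ± 0.29, 0.011) were called lower, beside 2.80% of all genes called lower and 55.6% called higher. The falls were larger in the first replicate: without it no member was called lower in either arm, and without the second replicate 4 and 3 members were. None was called in either arm when the replicate was not a block, nor without IAA at a pseudocount of 0.1.

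Fos, Egr1, Ier3 and Btg2 were higher at 40 than at 60 min in both replicates in both CTCF-AID arms, as 8.68% of all genes were without IAA and 9.85% with IAA, and Atf3 was not. Of these Ier3 was listed only through its released cells. With equal totals all 5 were, beside 32.5% and 36.8% of all genes, so that this count stands much nearer to the background on that scale. It includes Ier3 and Atf3, both listed there only through their released cells, so Fos, Egr1 and Btg2 are the 3 to read against these shares. In the first replicate without IAA, the ratio of TPM + 1 at 40 min to that at 60 min was 1.70 for Fos, 1.95 for Egr1, 2.50 for Ier3 and 2.13 for Btg2, where the median of all genes was 0.869. In the second replicate these ratios were 1.14, 1.13, 1.17 and 1.36, where the median was 0.807. In CCNA-GFP Btg2 alone was higher at 40 min in both replicates as deposited (2.12% of all genes), with ratios of 1.50 in the first and 1.00 in the second, while with equal totals Fos, Ier3 and Btg2 were, as were 35.6% of all genes. There the log2 fold changes from 40 to 60 min ran from -0.29 for Btg2 to 0.14 for Egr1, none called in either direction, while 79.5% of all genes were called higher with a median of 0.49 and 0.212% lower. Without the second replicate 2 members were called lower there, and without the first 1 was called higher.

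**Figure D3:**
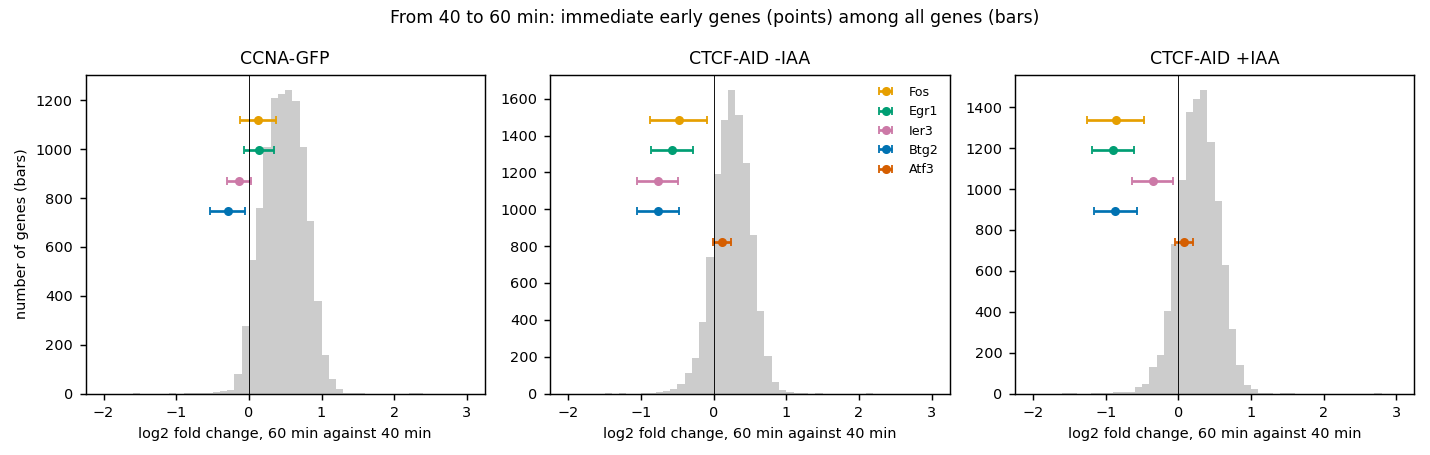
Log2 fold change from 40 to 60 min (limma, log2(TPM + 1)) of all genes as a histogram in bins of 0.1 (grey bars, number of genes on the vertical axis) and of the listed immediate early genes as points with standard errors, placed at arbitrary heights, in the 3 arms. In CTCF-AID, Fos, Egr1, Ier3 and Btg2 lie below 0, left of most genes, whose medians are 0.25 and 0.28, and Atf3 lies at 0.11 and 0.08.

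From 60 to 120 min 1 member was called lower in each arm. In CCNA-GFP only Egr1 was called lower (-0.87 ± 0.21, adjusted p = 0.0027), where 28.5% of all genes were. In CTCF-AID only Atf3 was, by 0.39 ± 0.12 without IAA (adjusted p = 0.0093) and by 0.40 ± 0.12 with it (0.0071), where 53.1% and 50.8% of all genes were, and Atf3 was listed only through its released cells. Others were lower in both replicates without being called: without IAA these were Fos (-0.56 ± 0.39, adjusted p = 0.22), Egr1 (-0.48 ± 0.29, 0.16), Btg2 and Ier3, with IAA Egr1, Btg2 and Ier3, and in CCNA-GFP Fos and Btg2. With equal totals none of these 3 calls remained. Without the second replicate 2 members were called lower in CCNA-GFP and none in CTCF-AID, and without the first 2 were in CTCF-AID without IAA.

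Compared with asynchronous cells, the members parted. Btg2 was higher at 60 min than in asynchronous cells by 2.45 ± 0.22 on the log2 scale in CCNA-GFP (adjusted p = 1.1e-08), 2.44 ± 0.27 in CTCF-AID without IAA (2e-08) and 2.74 ± 0.27 with IAA (4e-09), at the 99.9th percentile of all genes in CCNA-GFP and in CTCF-AID without IAA. Egr1 was lower at 60 min by 1.57 ± 0.27 in both CTCF-AID arms (adjusted p = 1e-05 and 1.1e-05), where 7.06% and 8.24% of all genes were called lower, and in CCNA-GFP it was at -0.15 ± 0.19 (adjusted p = 0.48), where 8.6% were called lower. Members called higher were 3 of 4 in CCNA-GFP (67% of all genes), 3 of 5 without IAA (75.2%) and 3 of 5 with IAA (72.2%). In CTCF-AID the filter favoured the calls of Ier3 and Atf3, and of the 3 other members Btg2 alone was called higher. Fos was called higher in CCNA-GFP alone, at 0.70 ± 0.24 (adjusted p = 0.011). With equal totals 1 member, Btg2, remained called higher there, and 1 was called lower. Without the second replicate Egr1 was called lower in CCNA-GFP and Ier3 was no longer called higher, and without the first Fos was not. In CTCF-AID without IAA, leaving out the second replicate ended the call for Ier3 and added one for Fos.

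The same split was present before release. Btg2 was lower in asynchronous than in mitotic cells in every replicate, by 1.21 ± 0.19 in CCNA-GFP, 1.33 ± 0.24 without and 1.47 ± 0.24 with IAA (adjusted p = 4.2e-05, 0.00016 and 3.8e-05), where 1.97%, 5.25% and 5.89% of all genes were called lower. Egr1 was higher in asynchronous cells in every replicate, by 1.60 ± 0.17, 2.11 ± 0.24 and 1.87 ± 0.24 (7.7e-07, 7.3e-07 and 1.9e-06), where 70.4%, 34.3% and 40.9% of all genes were. Fos, Ier3 and Atf3 were not called in any arm. Without the first replicate Fos and Ier3 were called higher in asynchronous CCNA-GFP cells too, and without the third Fos was, in CCNA-GFP and in CTCF-AID with IAA. The call for Egr1 and that for Btg2 held under all 8 alternatives in all 3 arms, among them equal totals, each replicate left out and no replicate block.

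Among asynchronous libraries the second replicate stood high for the members. It was the highest of 3 for 3 of 4 members in CCNA-GFP, where it was for 12.5% of all genes, for 4 of 5 in CTCF-AID without IAA (11.4%) and for 4 of 5 with IAA (15.9%). Of the 39 listed genes of a wider list of immediate early and feedback genes it was the highest for 18, 17 and 21, so that the pattern was not limited to the members. This count was chosen after the values had been seen. With IAA, Fos was at 4.91 TPM in that replicate against 0.453 and 0.313 TPM in the others, Atf3 at 0.520 against 0.0590 and 0.0922 TPM, and Btg2 at 4.18 against 1.22 and 0.922 TPM. Fos at 60 min against asynchronous cells depends on which of these libraries is taken, and at 60 min it lay below the second asynchronous replicate in both CTCF-AID arms.

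No effect of IAA on the members was called. None of 5 was called at any of 8 stages (limma, adjusted p below 0.1 and an absolute log2 fold change above 0.2), and none had an unadjusted p below 0.05. Of all genes none was called in mitosis or at 20 or 40 min, where 23, 31 and 85 genes had an unadjusted p below 0.05. In asynchronous cells and at 50, 60, 90 and 120 min 0.313%, 0.0879%, 0.0586%, 0.176% and 0.127% were called higher and 0.694%, 0.195%, 0.166%, 0.557% and 0.459% lower. In mitosis and at 20 and 40 min the unadjusted counts lie far below the share of 0.05 that chance alone gives. These contrasts had no replicate block, though same-numbered libraries deviated together (median r of 0.58), which widens the standard errors. A missing call therefore says little about the members, though the block put in changed no call. The study's own test on counts reported genes that responded to IAA early after release. At 40 min Btg2 was at 31.0 and 33.2 TPM without IAA and 33.5 and 34.6 TPM with it, Fos at 2.97 and 4.39 against 3.00 and 4.64 TPM, Ier3 at 2.68 and 2.72 against 2.47 and 2.45 TPM, and Egr1 at 3.49 and 5.74 against 5.14 and 6.41 TPM. The arms overlapped for Fos and Egr1, while Btg2 was a little higher and Ier3 a little lower with IAA in both replicates. Egr1 had the largest difference of the members at 40 min (0.29 ± 0.39, SE). Paired by replicate number it was higher with IAA in 3 of 3 mitotic pairs and in 2 of 2 pairs at 20, 40, 50 and 120 min, but in 1 of 2 at 60 and 90 min and 1 of 3 in asynchronous cells. Ier3 was higher with IAA in 3 of 3 mitotic pairs and in 2 of 2 at 20 and 90 min, and Atf3 was lower in 2 of 2 pairs at 20, 60, 90 and 120 min. The largest difference of any member at any stage was -0.34 ± 0.54 for Fos at 60 min, so that the standard errors of 0.15 to 0.54 would hide changes of that size. The rise from mitosis to 40–60 min, taken as an interaction with IAA, differed by -0.25 ± 0.35 for Ier3, 0.21 ± 0.34 for Btg2, 0.05 ± 0.54 for Fos, -0.04 ± 0.19 for Atf3 and -0.01 ± 0.39 for Egr1, with no member and no other gene called (0% of all genes, 89 genes at an unadjusted p below 0.05).

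Most other listed immediate early and feedback genes were called higher at 40 min as well. Of a wider list of 53 genes 39 were listed in each table, and at 40 min 35 were called higher in CCNA-GFP, 35 in CTCF-AID without IAA and 36 with it, where 49.3%, 63.3% and 58.7% of all genes were, with medians of 1.00, 1.21 and 1.21 beside 0.26, 0.34 and 0.30 for all genes. With equal totals 31 were called higher in each arm and 1 lower, beside all-gene medians of -0.05, -0.02 and -0.03 on that scale, where the share of all genes called is not given. A gene of this list or of the lists that follow could also enter a table through released cells alone, which favours a call above mitosis. How many did was not counted. The genes named from this list and the lists that follow were chosen for their change from mitosis at 60 min in CCNA-GFP, except where stated and where a gene is named as the only one of its count. Gadd45b, a stress-induced growth arrest gene, averaged 0.850 ± 0.273 TPM (SD) over the 3 mitotic and 6.25 ± 1.08 TPM over the 2 libraries of 40 min in CCNA-GFP, and went from 0.779 ± 0.292 to 8.44 ± 1.70 TPM in CTCF-AID without IAA. Myc, the growth-promoting transcription factor, went from 0.781 ± 0.184 to 4.61 ± 0.694 TPM and from 0.530 ± 0.222 to 4.82 ± 0.334 TPM over the same steps. Gadd45a rose by 1.69 and 1.79 on the log2 scale at 40 min, and the clock gene Per1 by 1.08 and 1.71.

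At 60 min 38 of the 39 were called higher in each arm, where 88.3%, 84.8% and 82.2% of all genes were. The exception in each was Spry4, an inhibitor of receptor tyrosine kinase signalling named here after its values were seen, at 0.11 ± 0.14 in CCNA-GFP (adjusted p = 0.44) and called lower in CTCF-AID at -0.45 ± 0.20 without (0.042) and -0.49 ± 0.20 with IAA (0.030). From 40 to 60 min the share of the wider list called lower was near that of all genes: 1 of 39 was called lower without IAA (Klf10) and 1 with IAA (Zfp36l1), beside 2.49% and 2.80% of all genes, while 4 and 7 were called higher, beside 52.2% and 55.6%, and the medians were 0.03 and 0.14 beside 0.25 and 0.28 for all genes. In CCNA-GFP 24 were called higher (79.5% of all genes) and none lower (0.212%), with a median of 0.33 beside 0.49. Between 60 and 120 min 22, 27 and 26 of 39 were called lower, where 28.5%, 53.1% and 50.8% of all genes were. With equal totals 14, 18 and 23 were, beside all-gene medians of 0.017, -0.008 and -0.003 on that scale. Per1, chosen for its change at 60 min in CCNA-GFP, had a log2 fold change of -0.80 ± 0.12 there, and in CTCF-AID without IAA, whose libraries did not enter the choice, it fell by 1.39 ± 0.19 (adjusted p = 3.2e-06). Fosl1, an AP-1 subunit that is itself induced with a delay and was singled out after its values were seen, went on rising over this interval, by 0.65 ± 0.11 (0.00014) and 0.84 ± 0.14 (3.7e-05).

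**Figure D4:**
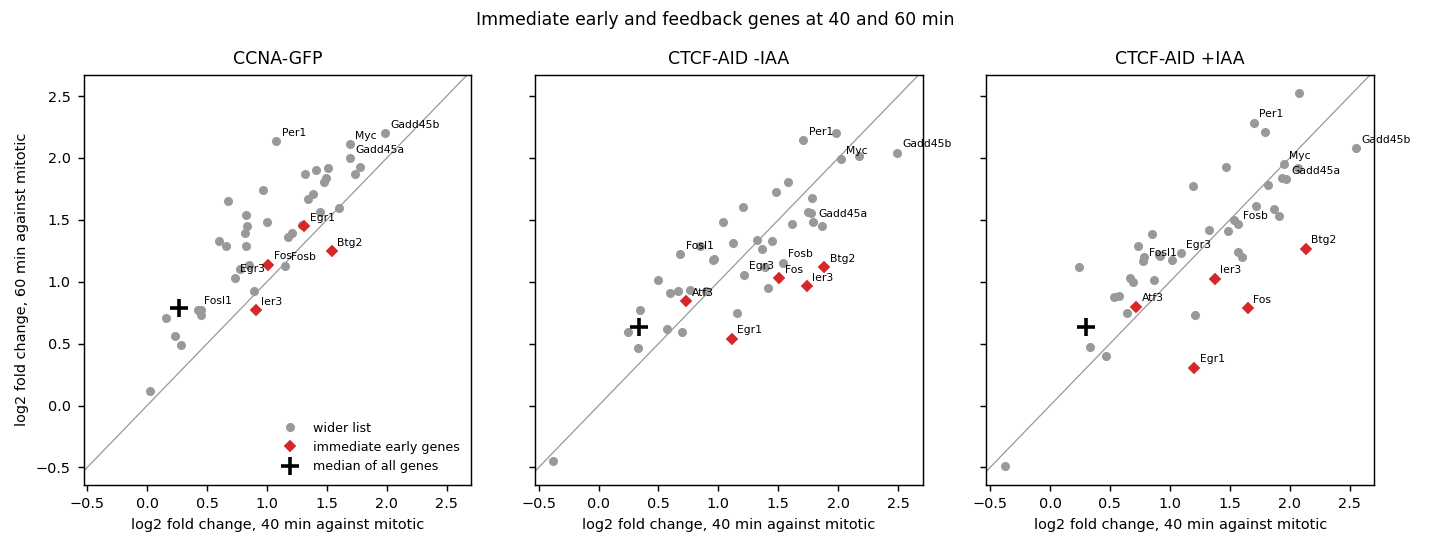
Log2 fold change from mitosis at 40 min (horizontal) against that at 60 min (vertical) for the 39 listed genes of the wider list (grey circles) and the listed immediate early genes (red diamonds) in each arm; the plus sign is the median of all genes and the line marks equal change at both times. Points below the line were higher at 40 than at 60 min, as Btg2, Ier3, Fos and Egr1 are in both CTCF-AID arms.

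The kinases and transcription factors that act on these genes had medians near those of all genes at 40 min, a difference that was not tested. Of 25 regulators 23 were listed in CCNA-GFP and 22 in CTCF-AID, and their medians at 40 min were 0.28, 0.23 and 0.22 in CCNA-GFP, CTCF-AID without and with IAA, beside 0.26, 0.34 and 0.30 for all genes. At 40 min 10, 12 and 10 were called higher, where 49.3%, 63.3% and 58.7% of all genes were. At 60 min 23, 22 and 20 were called higher as deposited, where 88.3%, 84.8% and 82.2% of all genes were. With equal totals 5, 6 and 5 were called higher and 8, 7 and 8 lower. The all-gene medians were 0.02, 0.06 and 0.06 on that scale. The small GTPase Hras, named for its change at 60 min in CCNA-GFP, had a log2 fold change of 1.59 ± 0.14 there.

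Partners of AP-1 were few. Of 10 such genes 5 were listed in CCNA-GFP and 4 in CTCF-AID, and at 40 min 2 were called higher in CCNA-GFP and 3 in each CTCF-AID arm, where 49.3%, 63.3% and 58.7% of all genes were, though 1, 1 and 2 with equal totals. Ddit3, the stress factor CHOP, rose by 1.64 ± 0.15 at 40 min in CCNA-GFP (adjusted p = 1.6e-07) and by 2.50 ± 0.15 in CTCF-AID without IAA (2.1e-11), and Atf2 by 0.48 ± 0.13 (0.0048) and 0.46 ± 0.10 (0.00035). Ddit3 was called lower at 60 than at 40 min in CTCF-AID without IAA (-0.53 ± 0.17, adjusted p = 0.010) and with it (-0.39 ± 0.17, 0.049), but higher in CCNA-GFP (0.47 ± 0.16, 0.013), where Btg2 was not called. The rise in CCNA-GFP was favoured by the choice of Ddit3, made for its change at 60 min there.

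Most of the listed targets of p53, a group to which Btg2 is also known to belong, were called higher at 40 min as well. Of 14 targets 11 were listed, and 10, 11 and 10 were called higher at 40 min, where 49.3%, 63.3% and 58.7% of all genes were, with medians of 0.97, 1.18 and 1.26 beside 0.26, 0.34 and 0.30 for all genes. With equal totals 7, 9 and 9 were called higher, and the share of all genes on that scale is not given. Bbc3, which encodes the pro-apoptotic protein PUMA, was at 1.66 ± 0.381 TPM in mitosis and 5.85 ± 1.17 TPM at 40 min in CCNA-GFP, and Sesn2, a stress-response gene, rose by 1.09 ± 0.16 (adjusted p = 1.4e-05). Of these 11 genes 11 were called higher at 60 min than in asynchronous cells in each arm, as Btg2 was and as 67%, 75.2% and 72.2% of all genes were. Their part in the values of Btg2 was not tested.

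Fos and Ier3 followed each other closely over the stages, and Egr1 and Btg2 did not. Over the 17 stage means of CCNA-GFP and CTCF-AID without IAA, Fos and Ier3 had a Pearson r of 0.89 on the log2(TPM + 1) scale, Btg2 and Ier3 0.75, Fos and Egr1 0.65, and Btg2 and Egr1 -0.06. The 3 genes most like Fos among 7341 compared were Tceal8 (r = 0.95), Dusp4 (0.94) and Klf6 (0.93), and those most like Btg2 were A230103J11Rik (0.94), Slc19a2 (0.93) and Depdc7 (0.92). Ier3 was closest to Tceal8 (0.95), Elf3 (0.93) and Cstb (0.93). Egr1 had no partner as close, with Plk1 at 0.83, Aldh16a1 at 0.83 and Btbd2 at 0.82. These correlations describe stage means that share replicates and the overall rise after release.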

How the data were processed

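RNA-seq of 55 libraries of CCNA-GFP and CTCF-AID ES cells was used. Libraries were ribo-depleted, stranded and sequenced in paired ends. The authors aligned to mm10 with STAR, ran RSEM on Gencode vM12 to which an unspliced isoform of every gene had been added, and deposited TPM for genes that passed their filter at 0.5 TPM. Each library's values are whole multiples of 0.01 TPM times a factor of its own (2.17–3.81 in CCNA-GFP, 1.84–2.80 in CTCF-AID) that no source used here explains. In such TPM a general rise in pre-mRNA of listed genes stays visible, and depth is unknown. The headers of the asynchronous CTCF-AID libraries are garbled and were read with the column names of the study's supplementary table. No library was a copy of another (at most 0.342% of values identical).

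Log2(TPM + 1) of all listed genes was fitted with limma 3.58.1 (lmFit, eBayes with trend) in R 4.3.3, a fit for each table, with Benjamini-Hochberg adjustment within each contrast. Stage contrasts carried the replicate as a block, as the study takes fold changes within replicates, and calls needed an adjusted p below 0.05. IAA contrasts had no block and followed the study's thresholds (0.1, and 0.2 on the log2 scale). The lines were not tested against each other, since their tables were normalized separately. On simulated data with 200 changed genes, a log2 change of 1 was called in 98.0% for CCNA-GFP at 60 min (9911 genes) and 0.5 in 67.5% at 40 min, and for IAA (10237 genes) 0.5 was called in 25.5% at 40 min. Alternatives were a pseudocount of 0.1, a mean of at least 1 TPM, equal library totals, the library factor undone, the block taken out or put in, and each replicate left out. Same-numbered libraries of CCNA-GFP deviated together: r was above 0.1 in 20 of 20 pairs of stages (0.18–0.84, median 0.54).

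The members and gene lists were chosen with earlier results of these data known. Named genes of other lists are the 4 of the wider list and the 2 of each other list with the largest change at 60 min in CCNA-GFP among those called in the same direction in each replicate, of which 1 is not reported here, and nearest genes those with the highest r over stage means at a mean of at least 1 TPM. Promoters are from RefSeq and gene models from Gencode vM21 (GRCm38). Python 3.11.15, numpy 2.4.6, pandas 2.3.3 and matplotlib 3.10.9 were used.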

Additional observations from a re-analysis of the deposited data

Results flagged for a closer look

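Egr1 at 90 min moved in opposite directions in the lines, with a log2 fold change from mitosis of 0.60 in CCNA-GFP and -0.17 in CTCF-AID without IAA, and every replicate had the direction of its line. Ier3 at 20 min did the same, with -0.26 in CCNA-GFP and 0.13 in CTCF-AID without IAA. Neither difference between the lines was tested, since the tables were normalized separately, and of these changes the one of Egr1 in CCNA-GFP alone was called by limma (adjusted p = 0.0065).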

How the results depend on the processing

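Calls at 40 min depended little on the processing: over 8 alternatives 3 to 4 members were called higher in CCNA-GFP and 4 to 5 in either CTCF-AID arm. Equal library totals changed most. Against mitosis they left 1, 0 and 0 members called higher in CCNA-GFP at 60, 90 and 120 min, 3, 2 and 1 in CTCF-AID without IAA at 50, 60 and 90 min, and 2, 1 and 1 with IAA at 60, 90 and 120 min, with 1 called lower at 90 min in each CTCF-AID arm. Btg2 in CCNA-GFP reversed to -0.37 at 90 min and -0.21 at 120 min, and Egr1 in CCNA-GFP to -0.028 at 120 min. From 60 to 120 min 0 members were then called lower in each arm, from 40 to 60 min 1 in CCNA-GFP, and against asynchronous cells 1 higher and 1 lower in CCNA-GFP. The cause was not tested beyond the scaling itself, which takes out the general rise.

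Without the replicate block 0 members were called lower from 40 to 60 min and 0 from 60 to 120 min in either CTCF-AID arm, 3 were called higher at 50 min and 2 at 90 min without IAA, and 1 at 120 min with IAA. In CTCF-AID 86 of 88 pairs of stages had an r above 0.1 between same-numbered libraries (lowest -0.08, median 0.58), and the block put into the IAA contrasts changed no call. A pseudocount of 0.1 gave 1 member called higher at 30 min in CCNA-GFP, 4 at 90 and 4 at 120 min with IAA, and, without IAA, 0 called lower from 40 to 60 and 0 from 60 to 120 min. A mean of at least 1 TPM gave 1 at 30 min and 2 in asynchronous against mitotic cells in CCNA-GFP, 1 at 120 min with IAA and 0 lower from 60 to 120 min in both CTCF-AID arms, where Atf3 was not tested. With the library factor undone 2 members were called at 30 min, 2 fell from 40 to 60 min, 1 was lower at 60 min than in asynchronous cells and 3 were higher in asynchronous than in mitotic cells in CCNA-GFP, and 2 in the latter comparison with IAA.

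With each replicate left out in turn, the counts ranged as follows. In CCNA-GFP 0 to 1 members were called higher at 30 min, 0 to 1 higher and 0 to 2 lower from 40 to 60 min, 1 to 2 lower from 60 to 120 min, 0 to 1 lower at 60 min than in asynchronous cells and 1 to 3 higher in asynchronous than in mitotic cells. Without IAA 2 to 4 were called higher at 90 min, 0 to 4 lower from 40 to 60 min and 0 to 2 lower from 60 to 120 min. With IAA 3 to 5 were called higher at 50 min, 2 to 4 higher and 0 to 1 lower at 90 min, 0 to 3 higher at 120 min, 0 to 3 lower from 40 to 60 min, 0 to 1 lower from 60 to 120 min and 1 to 2 higher in asynchronous than in mitotic cells. A stage left with 1 library was assumed to vary like the other stages.

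TPM carry no counts, so the precision of the low mitotic values of Atf3 and Ier3 is not known.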
